A study of Homo sapiens with 24 samples.

Results

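The IGFL genes (IGF-like family members) and the receptor gene IGFLR1 were described in HepaRG cells, a human liver progenitor line that can mature toward hepatocyte-like cells, cultured with or without the ligand Wnt3a. The IGFL genes encode small secreted proteins with conserved cysteines and a distant likeness to insulin-like growth factors. IGFL1 binds IGFLR1, a membrane protein related to the tumor necrosis factor receptors that was described on T cells, and IGFL transcripts are best known from skin. Wnt3a binds Frizzled receptors and stabilizes beta-catenin, encoded by CTNNB1, which enters the nucleus and acts with TCF/LEF factors on target genes.

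The members IGFL1, IGFL2, IGFL3, IGFL4 and IGFLR1 are 5 of 20503 genes that could be named on the array, and each is measured by 1 probe whose RefSeq transcript belongs to that gene. Probe sequences were not used here, so cross-hybridization among similar IGFL transcripts was not tested, which bears on each value per gene and on the correlations among these genes. The IGFL genes were chosen by their measured values, as genes with the strongest rise between untransfected untreated cells and untransfected cells with Wnt3a. For the members, that contrast and every comparison that uses these untransfected arrays without FZD8_CRD are given as a description with no test. Probes were tested where all 3 arrays of a condition were well above background, and 4 of the 5 members passed (IGFL1, IGFL2, IGFL3 and IGFLR1). IGFL4 did not pass. Shares of all genes below count 24647 entries tested, of which 16000 have a symbol and 8647 are named by an identifier only.

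The study held 24 single-color arrays in 8 conditions of 3 independent cultures each. Cells were untransfected, transfected with 80 pmol of a control siRNA (siCTRL), transfected with 80 pmol of siRNA against beta-catenin (siCTNNB1), or given 300 ng/ml FZD8_CRD, a soluble part of the receptor Frizzled 8 that binds Wnt proteins. Each state was sampled without Wnt3a and with 200 ng/ml Wnt3a at 72 h. The 3 replicate numbers were also the 3 slides, so each slide carried 1 array of each of the 8 conditions. Levels below are percentages of the 75th percentile of the signals on the same array, and differences are on the log2 scale. The number of arrays limits the precision of each value. The p-values measure spread among these cultures, and the main fit behind them has no term for the slide.

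Markers were checked against the label of the cells. Of 12 genes of liver epithelium and progenitors, 11 were well above background on all 24 arrays, including ALB and KRT19, and EPCAM was so on 1 array. Of 7 keratinocyte genes, KRT5, KRT14 and KRT10 were well above background on all 24 arrays, IVL on 4, TP63 on 2, and KRT1 and DSG3 on none. Of the leukocyte genes, PTPRC and CD79A were well above background on all 24 arrays and CD3E on 16, and the endothelial genes PECAM1, CDH5 and VWF were so on all 24. PTPRC has 4 probes, PECAM1 3 and VWF 2, and these counts per gene do not show each probe. Detection is also not a high level. Mean summed levels per condition ran from 17.2% to 24.5% for the 3 endothelial genes and from 219% to 375% for the 3 leukocyte genes, CD79A being the brightest. For the 11 liver genes tested they ran from 64291% to 147548%. In a culture measured in bulk, fewer cells of a type and less RNA per cell cannot be told apart.

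The agreement of arrays within their conditions was checked. The array labelled FZD8_CRD without Wnt3a, replicate 3, correlated with the other 2 arrays of its condition at a mean r of 0.987 over all genes tested, with the FZD8_CRD plus Wnt3a array of its own slide at 0.996, and with the FZD8_CRD plus Wnt3a arrays of the other slides at 0.993. For replicates 1 and 2 the mean r with their own condition was 0.991 in each case, above the 0.985 and 0.987 with Wnt3a arrays of other slides. The median absolute gap of replicate 3 from its partners was 0.25 on the log2 scale, and the other 23 arrays lay between 0.09 and 0.24. The upper end was held by untransfected Wnt3a replicates 2 and 3 (0.24 and 0.24, mean r with their condition 0.988 and 0.988), and over all conditions 13 of 24 arrays had their nearest array in another condition, among them the 3 untransfected Wnt3a arrays and the 3 arrays of control siRNA plus Wnt3a. For Wnt3a with FZD8_CRD, the tests of IGFL1, IGFL2 and IGFL3 are given with and without FZD8_CRD replicate 3. The same holds for the order of conditions and the correlations. The ranks by size and the test of IGFLR1 in that comparison rest on all arrays.

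Without transfection, the values that chose the genes were as follows. IGFL2 measured 37.4%, 62.7% and 67.9% on the 3 untreated arrays and 835%, 1331% and 792% with Wnt3a. IGFL1 measured 11%, 13.9% and 13% untreated and 59.7%, 100.1% and 48.9% with Wnt3a. IGFL3 measured 143%, 224% and 228% untreated and 681%, 1702% and 697% with Wnt3a. For each of the 3 genes every Wnt3a array was above every untreated array, as for 8.48% of all genes tested, and replicate 2 was the highest of the Wnt3a arrays. The mean rises were 17.7-fold for IGFL2, 5.28-fold for IGFL1 and 4.80-fold for IGFL3, as a description. IGFLR1 measured 488%, 500.4% and 415% untreated and 335%, 362% and 351% with Wnt3a. The receptor transcript was thus lower on each Wnt3a array than on each untreated one, as for 6.8% of all genes tested.

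**Figure D1:**
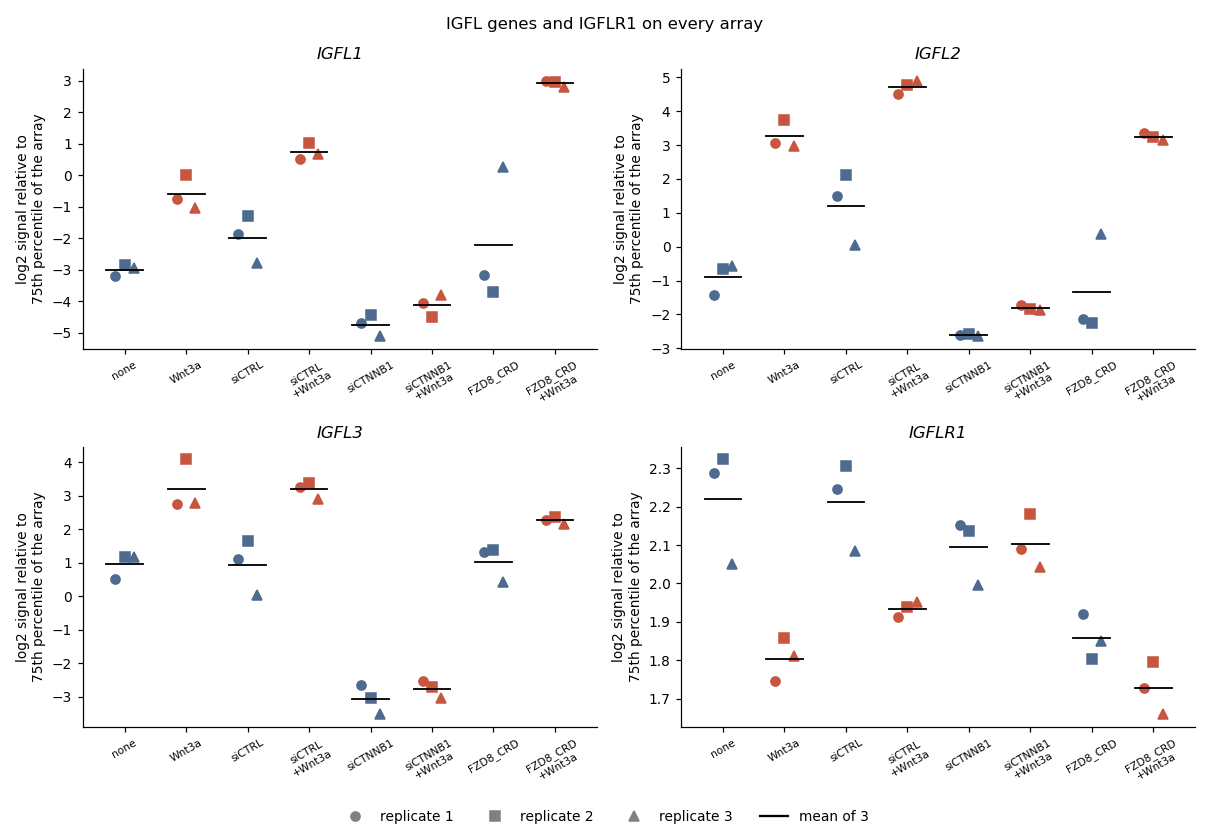
Log2 signal of IGFL1, IGFL2, IGFL3 and IGFLR1, scaled by the array's own 75th percentile, in 8 conditions, with 1 symbol per array and a bar at the mean of 3; blue is without and red with Wnt3a. The 3 IGFL genes had their lowest mean in the cells with siRNA against beta-catenin and no Wnt3a, and replicate 3 of FZD8_CRD without Wnt3a sat apart for IGFL1 and IGFL2.

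The first question outside the comparison that chose the genes was whether they differed with Wnt3a after control siRNA. These arrays share slides and 1 estimate of spread with the arrays that chose the genes. The members were also named with earlier results of these data known, so the comparison is not fully independent of the choice. IGFL2 measured 281%, 429% and 103% after control siRNA and 2272%, 2757% and 2949% with Wnt3a added. IGFL1 measured 27.2%, 40.9% and 14.5% without and 144%, 201% and 159% with Wnt3a. IGFL3 measured 215%, 316% and 103% without and 970.0%, 1052% and 756% with Wnt3a. The Wnt3a arrays lay above the others without overlap for the 3 genes, as for 2840 of the 24647 genes tested, and replicate 3 of the control siRNA arrays was the lowest for each. IGFL2 rose 11.4-fold (log2 difference 3.51, SE 0.51, limma adjusted p = 0.00213), IGFL1 6.58-fold (2.72, SE 0.63, adjusted p = 0.0306) and IGFL3 4.78-fold (2.26, SE 0.37, adjusted p = 0.00512), each higher in 3 of 3 slides. So 3 of the 4 members tested were called higher, against 1.09% of the 24647 genes tested. Among genes called in this comparison IGFL2, IGFL1 and IGFL3 held rank 1, 2 and 4 by size of rise, with LRRC15, a membrane protein of activated fibroblasts, at 2.26 (SE 0.24, adjusted p = 9.83e-05) and COL1A1, a chain of type I collagen, at 2.19 (SE 0.33, adjusted p = 0.00275). COL1A1 was not called without replicate 1 or 2 of every condition, nor LRRC15 without replicate 1 of every condition.

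Within slides 1, 2 and 3 the difference for IGFL2 was 3.02, 2.68 and 4.83, for IGFL1 2.40, 2.30 and 3.45, and for IGFL3 2.17, 1.73 and 2.87. Slide 3 gave the largest difference for each gene. The call for IGFL1 was lost when a single array was left out in 5 of 6 cases: control siRNA replicate 1 (adjusted p = 0.103) or 3 (0.147), or the Wnt3a replicate 1 (0.0611), 2 (0.124) or 3 (0.0814). Without replicate 1 or without replicate 2 of every condition, which leaves 2 arrays per condition, the calls for all 3 genes were lost, with adjusted p of 0.162 and 0.0620 for IGFL2, 0.400 and 0.262 for IGFL1, and 0.244 and 0.0546 for IGFL3. Without replicate 3 of every condition the rise of IGFL2 was 7.21-fold (adjusted p = 0.00209). IGFL1 was also not called with no filter on dim probes (adjusted p = 0.0813) or with no moderation (0.0583).

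IGFLR1 measured 475%, 495% and 424% after control siRNA and 376%, 383% and 387% with Wnt3a. Its Wnt3a arrays lay below the others without overlap, as for 12% of all genes, and the log2 difference was -0.28 (SE 0.08, limma adjusted p = 0.0596), which missed the threshold. It was called with quantile normalization (adjusted p = 0.0312) and without replicate 3 of every condition (-0.35, adjusted p = 0.0217). With the slide as a replicate block the same difference had an adjusted p of 0.0168, and within slides it was -0.34, -0.37 and -0.13.

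The siRNA was checked on its target next. CTNNB1 lay between 3.35 and 3.67 on the log2 scale relative to the 75th percentile over the 6 control siRNA arrays, and between 0.26 and 0.77 over the 6 arrays with siRNA against it. The groups were far apart, with a fall of 8.19-fold without Wnt3a (limma adjusted p = 1.17e-09) and 8.10-fold with Wnt3a (adjusted p = 7.75e-10).

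After knockdown of beta-catenin the IGFL genes were lower also where no Wnt3a was added. IGFL3 measured 16%, 12.2% and 8.74% after siCTNNB1, against the 215%, 316% and 103% after control siRNA. IGFL2 measured 16.5%, 16.7% and 16.1%, a spread of the 3 arrays much smaller than in control cells. IGFL1 measured 3.89%, 4.59% and 2.91%, and was still well above background on each array. For the 3 genes all knockdown arrays were below all control siRNA arrays, as for 20.3% of all genes. They were also below all untransfected arrays, which is a description given with no share over all genes. IGFL3 fell 16.1-fold (log2 difference -4.01, SE 0.37, limma adjusted p = 1.64e-06), IGFL2 14.1-fold (-3.82, SE 0.51, adjusted p = 6.36e-05) and IGFL1 6.78-fold (-2.76, SE 0.63, adjusted p = 0.00732), each lower in 3 of 3 slides. IGFL3 held rank 1, IGFL2 rank 2 and IGFL1 rank 6 among all falls, and CTNNB1 itself rank 3. The count was 3 of 4 members tested, against 6.16% of all genes called lower. With normexp background correction the fall of IGFL1 was 3.04-fold (adjusted p = 0.0400) and that of IGFL3 9.95-fold (adjusted p = 3.75e-06). Without replicate 1 or without replicate 2 of every condition the fall of IGFL1 was not called (adjusted p = 0.211 and 0.128).

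With Wnt3a present in both, the distance between the siRNAs was wider. IGFL2 measured 30.1%, 28.0% and 27.4% after siCTNNB1 with Wnt3a, IGFL3 17.4%, 15.2% and 12.2%, and IGFL1 5.95%, 4.41% and 7.16%. No knockdown array reached the lowest control siRNA array, with or without Wnt3a, and with Wnt3a 15.4% of all genes were separated this way. Against control siRNA with Wnt3a, IGFL2 was 92.8-fold lower (log2 difference -6.54, SE 0.51, limma adjusted p = 6.11e-08), IGFL3 62.0-fold (-5.95, SE 0.37, adjusted p = 3.43e-09) and IGFL1 29.0-fold (-4.86, SE 0.63, adjusted p = 3.30e-05), each lower in 3 of 3 slides. Here 3 of 4 members tested were called lower, against 6.50% of all genes. With normexp the falls were 12.5-fold for IGFL1 and 37.7-fold for IGFL3. Some markers of cell types were called in these comparisons too. Without Wnt3a the log2 difference between siCTNNB1 and control siRNA was -1.84 for KRT14 (adjusted p = 0.0304) and -0.94 for PECAM1 (adjusted p = 0.0196). With Wnt3a it was -0.99 for KRT5 (adjusted p = 0.0044), -0.57 for SOX9 (adjusted p = 0.0478) and 1.19 for ALB (adjusted p = 0.0156). Without Wnt3a 1 of 3 keratinocyte and 1 of 3 endothelial genes tested were thus lower, against 6.16% of all genes. With Wnt3a 1 of 3 keratinocyte genes was lower, and of 11 liver genes 1 was higher and 1 lower, against 4.08% higher and 6.50% lower. No other marker tested was called. The part of such cells in the IGFL values was not tested here. IGFLR1 had log2 differences of -0.12 (SE 0.08, adjusted p = 0.404) without Wnt3a and 0.17 (SE 0.08, adjusted p = 0.184) with Wnt3a, and neither passed, while the second was called with quantile normalization (0.21, adjusted p = 0.0463).

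**Figure D2:**
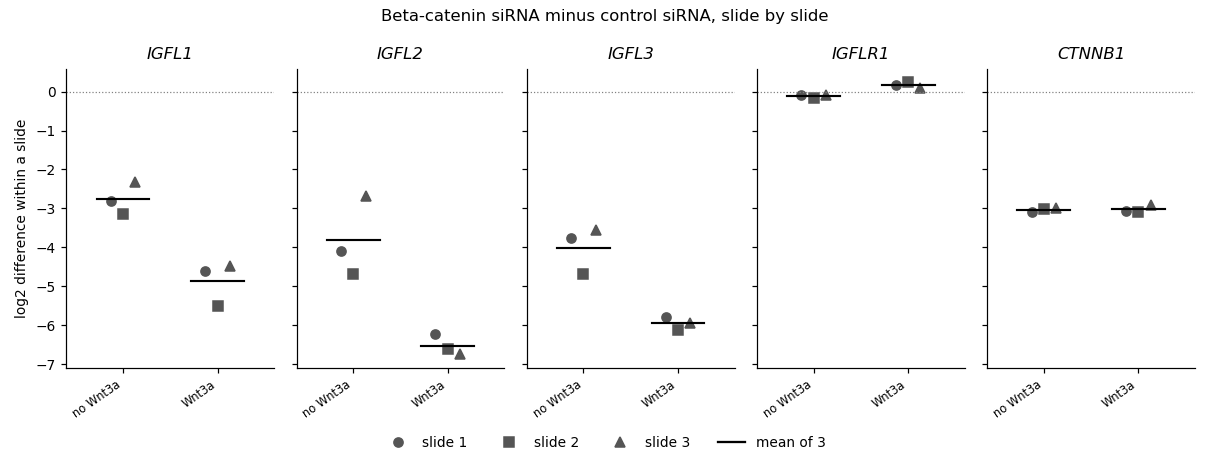
Log2 difference between siRNA against beta-catenin and control siRNA on the same slide, without and with Wnt3a, for the IGFL genes, IGFLR1 and CTNNB1, with 1 symbol per slide and a bar at the mean of 3. IGFL1, IGFL2 and IGFL3 lie below 0 on each slide, and IGFLR1 lies near 0.

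How much of the Wnt3a response was left after the knockdown was asked by comparing siCTNNB1 with and without Wnt3a. IGFL2 was higher with Wnt3a in 3 of 3 slides, by 0.87, 0.75 and 0.77 on the log2 scale, and its groups did not overlap, as for 11.8% of all genes in that direction. Its mean difference was 0.80 (SE 0.51, limma adjusted p = 0.654), and with the 6 arrays of this comparison fitted alone the adjusted p was 0.0327. IGFL1 had a difference of 0.62 (SE 0.63, adjusted p = 0.852) and IGFL3 of 0.31 (SE 0.37, adjusted p = 0.893), with overlapping groups. Within slides IGFL1 was higher with Wnt3a in 2 of 3 (0.62, -0.06 and 1.30) and IGFL3 in 3 of 3 (0.13, 0.32 and 0.48). In the fit over all arrays 0 of 4 members tested were called higher, against 0.0365% of all genes. Also 0 of 4 had an unadjusted p under 0.05, against 10.4% of all genes.

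The difference between these responses was then tested itself. The Wnt3a response after siCTNNB1 minus that after control siRNA was -2.71 for IGFL2 (SE 0.72, limma adjusted p = 0.580), -2.10 for IGFL1 (SE 0.90, adjusted p = 1) and -1.95 for IGFL3 (SE 0.53, adjusted p = 0.614). The response was smaller after the knockdown in 3 of 3 slides for each gene. None of the 4 members was called, although 4 of 4 had an unadjusted p under 0.05, as did 822 of the 24647 genes. Over all genes 0.0122% were called lower in this test. IGFL2 and IGFL3 passed the study's thresholds in this test, as did 140 genes in all. Without replicate 3 of every condition the difference for IGFL2 was -2.04, or 4.11-fold against 6.56-fold.

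FZD8_CRD was added to ask what the Wnt3a response is in the presence of a soluble Wnt-binding protein. IGFL1 measured 11.1%, 7.63% and 121% with FZD8_CRD alone and 787%, 776% and 698% with FZD8_CRD plus Wnt3a. IGFL2 measured 22.9%, 21.0% and 130.0% alone and 1023%, 937% and 895% with Wnt3a. IGFL3 measured 249.8%, 260.3% and 134% alone and 482%, 519% and 449% with Wnt3a. The Wnt3a arrays lay above the others for the 3 genes, as for 12% of all genes (24.8% without FZD8_CRD replicate 3), and the array of FZD8_CRD replicate 3 was the highest of its condition for IGFL1 and IGFL2 and the lowest for IGFL3. IGFL1 rose 34.6-fold (log2 difference 5.11, SE 0.63, limma adjusted p = 0.000204), IGFL2 24-fold (4.58, SE 0.51, adjusted p = 8.19e-05) and IGFL3 2.34-fold (1.23, SE 0.37, adjusted p = 0.0453), each higher in 3 of 3 slides. By size, IGFL1 held rank 1 and IGFL2 rank 2 of all rises in this comparison, and IGFL3 rank 208. The count was 3 of 4 members tested, against 4.36% of all genes called higher.

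Without FZD8_CRD replicate 3 the rise was 81.7-fold for IGFL1 (adjusted p = 4.09e-10) and 43.4-fold for IGFL2 (adjusted p = 1.2e-08), and for IGFL3 the log2 difference was 0.92 (adjusted p = 0.120), which was no longer called, so that 2 of 4 members tested were called higher against 8.67% of 24718 genes. The call for IGFL3 was lost without any single array of the 6, with adjusted p between 0.0927 and 0.137, and without replicate 1, 2 or 3 of every condition. Without replicate 1 or without replicate 2 of every condition IGFL1 (adjusted p = 0.273 and 0.148; 20.2-fold in the second) and IGFL2 (0.171 and 0.135) were not called either. Without replicate 3 of every condition the rises were 84.8-fold and 44.7-fold. Without FZD8_CRD replicate 2 the rise of IGFL1 was 20.5-fold (adjusted p = 0.00242), and with normexp 22.2-fold. Within slides 1, 2 and 3 the difference was 6.14, 6.67 and 2.53 for IGFL1, 5.48, 5.48 and 2.78 for IGFL2, and 0.95, 1.00 and 1.74 for IGFL3. When the 6 arrays were fitted alone, adjusted p was 0.144 for IGFL1, 0.117 for IGFL2 and 0.144 for IGFL3. IGFLR1 differed by -0.13 (SE 0.08, adjusted p = 0.370).

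**Figure D3:**
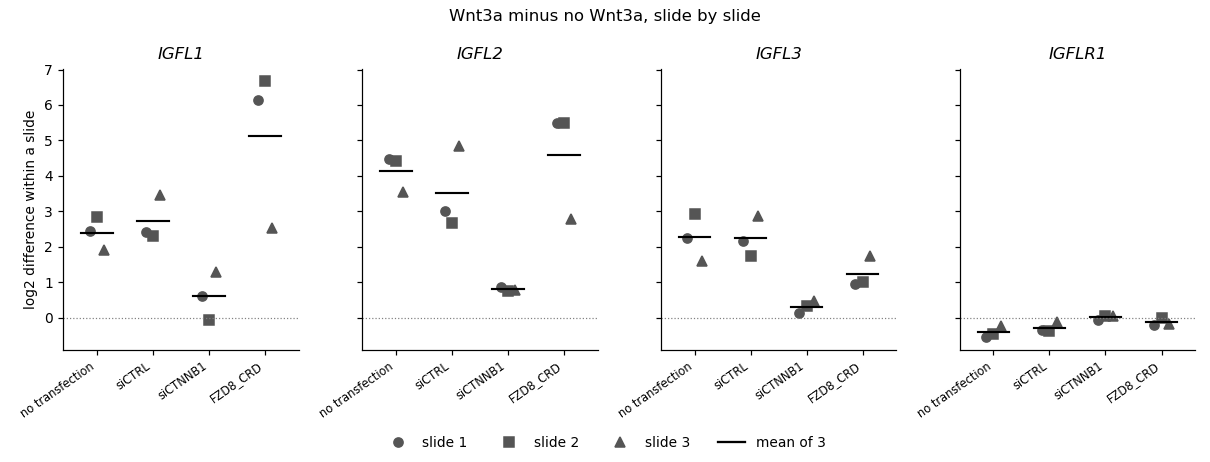
Log2 difference between arrays with and without Wnt3a on the same slide, in untransfected cells, after each siRNA and with FZD8_CRD, for IGFL1, IGFL2, IGFL3 and IGFLR1, with 1 symbol per slide and a bar at the mean of 3. Slide 3 holds FZD8_CRD replicate 3, where IGFL1 and IGFL2 gave differences of 2.53 and 2.78.

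Marker genes of keratinocytes and of liver epithelium differed in the same comparison. KRT14 rose by 3.22 (limma adjusted p = 0.00162) and KRT5 by 1.17 (adjusted p = 0.00312) with Wnt3a in the presence of FZD8_CRD, and KRT10 differed by 0.07 (adjusted p = 0.732). Without FZD8_CRD replicate 3 the differences were 4.10 for KRT14 (adjusted p = 9.38e-07), 1.41 for KRT5 (adjusted p = 9.75e-05) and 0.08 for KRT10 (adjusted p = 0.569). Of 11 liver epithelium genes tested APOA1 rose by 2.22 (adjusted p = 0.0379) and CDH1 fell (-1.60, adjusted p = 0.0128). Without that array the differences were 3.23 and -2.10, with 3 genes of this group called higher and 2 lower. Of all genes 4.36% were called higher and 3.94% lower in this comparison, and 8.67% and 11.3% without that array. On the FZD8_CRD arrays KRT14 lay at -4.47, -4.80 and -2.02 on the log2 scale relative to the 75th percentile, so replicate 3 was high for KRT14 as for IGFL1. The sum over the 3 tested keratinocyte genes, of which KRT10 was the brightest, was 3444%, 3691% and 3765% with FZD8_CRD alone and 3804%, 4024% and 4138% with Wnt3a. KRT1 and DSG3 were well above background on no array. The part of such cells in the IGFL values was not tested.

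The IGFL genes differed in how their levels with FZD8_CRD plus Wnt3a stood to those with Wnt3a alone, which is a description because the arrays with Wnt3a alone chose the genes. For IGFL1 the level was 11.3-fold higher with FZD8_CRD plus Wnt3a, and above it on each slide, by 3.72, 2.95 and 3.83. For IGFL2 it differed by -0.01 in the mean and by 0.29, -0.51 and 0.18 within slides, so the groups overlapped. For IGFL3 it was lower on each slide, by -0.50, -1.71 and -0.64. The 2 conditions stood apart over the whole array, where limma called 18.2% of all genes higher and 18.9% lower with FZD8_CRD plus Wnt3a.

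Control siRNA was set against no transfection in the same way, as a description. IGFL2 stood 4.28-fold higher after control siRNA without Wnt3a and 2.76-fold higher with Wnt3a, above the untransfected array on each of the 3 slides in both cases. IGFL1 stood 2.01-fold and 2.51-fold higher, also on each slide. Without Wnt3a the log2 differences within slides 1, 2 and 3 were 2.91, 2.77 and 0.61 for IGFL2, and 1.30, 1.56 and 0.16 for IGFL1. Slide 3 gave the smallest difference for both genes, so these mean folds depend on it. IGFL3 differed by -0.02 without and by -0.02 with Wnt3a in the mean, with both signs among the slides, and IGFLR1 by -0.01 and 0.13. Of all genes, limma called 12.3% higher and 10.1% lower after control siRNA without Wnt3a, and 5.44% and 3.59% with Wnt3a.

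The order of the 8 conditions was close but not equal among the 3 genes. From low to high, IGFL1 ran siCTNNB1, siCTNNB1 plus Wnt3a, untreated, FZD8_CRD, control siRNA, Wnt3a, control siRNA plus Wnt3a, FZD8_CRD plus Wnt3a. In that order siCTNNB1 overlapped siCTNNB1 plus Wnt3a, untreated overlapped FZD8_CRD, and FZD8_CRD overlapped control siRNA, while other neighbours were apart. Without FZD8_CRD replicate 3, FZD8_CRD (2 arrays, mean log2 level -3.44) came below untreated (-2.99) and overlapped it, and no longer overlapped control siRNA. IGFL2 ran siCTNNB1, siCTNNB1 plus Wnt3a, FZD8_CRD, untreated, control siRNA, FZD8_CRD plus Wnt3a, Wnt3a, control siRNA plus Wnt3a. There FZD8_CRD overlapped both of its neighbours through replicate 3, and FZD8_CRD plus Wnt3a overlapped Wnt3a. Without that array FZD8_CRD (-2.19) lay between siCTNNB1 and siCTNNB1 plus Wnt3a (-1.81) and overlapped neither. IGFL3 ran siCTNNB1, siCTNNB1 plus Wnt3a, control siRNA, untreated, FZD8_CRD, FZD8_CRD plus Wnt3a, control siRNA plus Wnt3a, Wnt3a. The knockdown conditions of IGFL3 overlapped each other, as did control siRNA, untreated and FZD8_CRD in turn, and the last 2 conditions overlapped, while without that array FZD8_CRD was apart from untreated. IGFLR1 ran FZD8_CRD plus Wnt3a, Wnt3a, FZD8_CRD, control siRNA plus Wnt3a, siCTNNB1, siCTNNB1 plus Wnt3a, control siRNA, untreated, and neighbours overlapped except control siRNA plus Wnt3a and siCTNNB1, with or without that array.

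With all arrays, spread for IGFL1 and IGFL2 was largest in FZD8_CRD without Wnt3a, and for IGFL3 after control siRNA without Wnt3a. IGFL1 had an SD of 2.16 on the log2 scale in FZD8_CRD and of 0.09 in FZD8_CRD plus Wnt3a (n = 3 each), and IGFL2 had 1.49 and 0.10. In FZD8_CRD this spread rested on replicate 3. It lay at 0.27 for IGFL1, against -3.17 and -3.71, and at 0.38 for IGFL2, against -2.13 and -2.25. Among the other conditions, control siRNA without Wnt3a had the largest SD for both genes. After control siRNA without Wnt3a the SD was 0.75 for IGFL1, 1.05 for IGFL2 and 0.82 for IGFL3, and with Wnt3a 0.25, 0.20 and 0.25. For IGFLR1 the SD lay between 0.02 and 0.15 in the 8 conditions.

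IGFL4, the remaining family member of the cluster, was well above background on 1 of 24 arrays, the untreated replicate 2, at 18.9 intensity units or 2.41% of the 75th percentile. On the other arrays its signal was not well above background, with or without Wnt3a, and no fold change is given.

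Over the 24 arrays, correlations among the members are given as a description. These arrays include the untransfected ones that chose the IGFL genes by a shared rise, so part of a positive r was set by that choice. No share over all genes is given, and genes outside the family reached higher r (up to 0.97, below). Pearson's r was 0.88 between IGFL1 and IGFL2, 0.84 between IGFL2 and IGFL3 and 0.77 between IGFL1 and IGFL3. IGFLR1 had r of -0.63 with IGFL1, -0.48 with IGFL2 and -0.47 with IGFL3. Without FZD8_CRD replicate 3 the 3 values among the IGFL genes were 0.90, 0.84 and 0.78, and those of IGFLR1 -0.62, -0.49 and -0.48. The arrays share conditions and slides, so they are not independent points.

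Among genes with a symbol outside the family, the 5 with the highest r to IGFL2 were TCF7, a TCF/LEF factor (0.97), SPARC, a collagen-binding matrix protein (0.96), NANOS1 (0.96), TSPAN10 (0.95) and IL1R1, the interleukin 1 receptor (0.95). For IGFL1 they were LCP1, an actin-bundling protein (0.97), LIMA1 (0.97), TADA3 (0.96), ATP12A (0.96) and GBP1, an interferon-induced GTPase (0.96). For IGFL3 they were HES7 (0.96), FBXW8 (0.95), ARHGEF3 (0.95), C2orf81 (0.95) and ARF3 (0.94). No gene was on more than 1 of these lists. With Spearman's rho 3 of the 5 genes were again among the 5 highest for IGFL1, 4 for IGFL2 and 1 for IGFL3, and over the 8 condition means 3, 3 and 2. Without FZD8_CRD replicate 3, a choice made after its values had been seen, they were 3, 4 and 4.

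**Figure D4:**
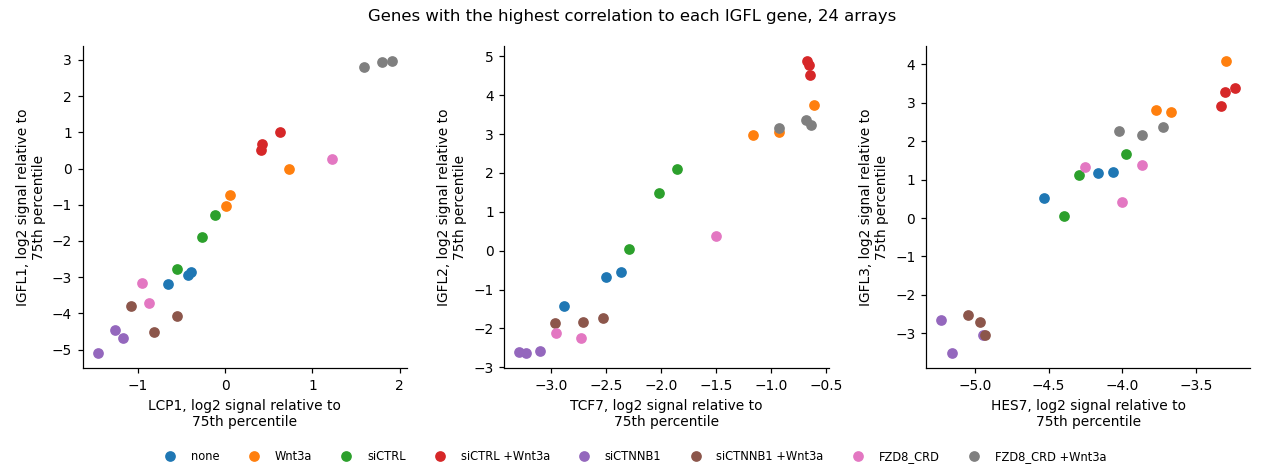
Log2 signal relative to the 75th percentile for IGFL1, IGFL2 and IGFL3 against the gene with the highest Pearson's r to each (LCP1, TCF7 and HES7), with 1 point per array (24) and colors for the 8 conditions. For IGFL2 the arrays with siRNA against beta-catenin lie at the low end and those with control siRNA plus Wnt3a at the high end.

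The IGFL genes lie in one cluster on chromosome 19 (RefSeq, GRCh38.p14), where IGFL3 lies within the annotated span of IGFL2, with IGFLR1 elsewhere on that chromosome. IGFL2-AS1, IGFL1P1 and IGFL1P2 of the cluster have no probe named here. Of the 10 nearest protein-coding genes, 5 on each side of the cluster, 3 were tested (MYPOP, HIF3A and PPP5C). After control siRNA they differed with Wnt3a by -0.12, -0.11 and -0.13 on the log2 scale, and 0 of 3 were called by limma or had an unadjusted p under 0.05, against 2.11% and 14% of all genes. Between siCTNNB1 and control siRNA without Wnt3a they differed by -0.04, -0.15 and -0.18, with 0 of 3 called and 0 with an unadjusted p under 0.05, against 10.6% and 22.7% of all genes. The range of -0.13 to -0.11 for these neighbours stood beside rises of 2.26 to 3.51 for IGFL1, IGFL2 and IGFL3. Of 10 neighbours of IGFLR1, 9 were tested, among them U2AF1L4 and PSENEN on the side of higher coordinates, with differences of -0.38 to 0.17 with Wnt3a after control siRNA and 0 of 9 called, 1 of them with an unadjusted p under 0.05, against the same 2.11% and 14%. With FZD8_CRD 1 of these 9 was called with Wnt3a, COX6B1 (-0.47, adjusted p = 0.0467), against 8.29% of all genes. None of the 3 near the cluster was called. Without FZD8_CRD replicate 3, COX6B1 (-0.68, adjusted p = 0.00052) and PPP5C near the cluster (-0.34, adjusted p = 0.00466) were called lower, against 11.3% of all genes.

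**Figure D5:**
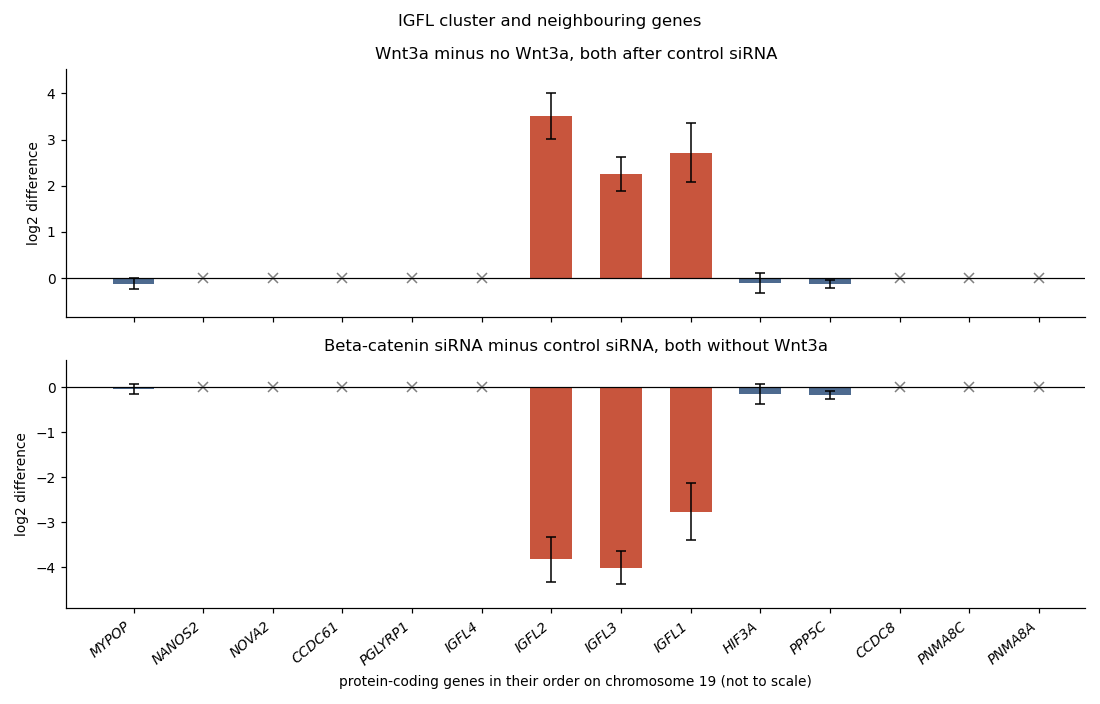
Log2 differences of protein-coding genes of the IGFL cluster and 5 genes on each side, ordered by their lowest annotated position, with Wnt3a after control siRNA (top) and with beta-catenin siRNA without Wnt3a (bottom); bars are the limma estimate, error bars its SE, and crosses mark genes with no tested probe. IGFL2, IGFL3 and IGFL1 stand apart from MYPOP, HIF3A and PPP5C in both panels.

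Promoter windows of the cluster genes were read for how they differ in sequence, and a link between these sequences and the expression values was not tested. The windows are the 250 bases before a start annotated in RefSeq (GRCh38.p14), read 5′ to 3′ on the strand of the gene. For IGFL2 1 start was used, and its annotated span reaches further upstream, where no window was analysed here. Capitals mark 4 spellings of the core that TCF/LEF factors bind, on either strand, which were chosen after the windows had been seen and are named with their shares below.
IGFL1 (chr19:46229492-46229741, plus strand): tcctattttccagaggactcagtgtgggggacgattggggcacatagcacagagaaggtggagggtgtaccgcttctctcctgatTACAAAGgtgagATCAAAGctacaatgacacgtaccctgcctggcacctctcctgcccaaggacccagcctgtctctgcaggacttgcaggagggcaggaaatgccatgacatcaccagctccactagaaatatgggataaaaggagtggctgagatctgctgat
IGFL2 (chr19:46147988-46148237, plus strand): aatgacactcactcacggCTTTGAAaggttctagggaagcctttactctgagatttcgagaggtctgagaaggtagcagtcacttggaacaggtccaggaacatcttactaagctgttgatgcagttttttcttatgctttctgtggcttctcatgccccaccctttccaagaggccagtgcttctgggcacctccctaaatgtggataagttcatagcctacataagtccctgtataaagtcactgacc
IGFL3 (chr19:46124689-46124938, minus strand): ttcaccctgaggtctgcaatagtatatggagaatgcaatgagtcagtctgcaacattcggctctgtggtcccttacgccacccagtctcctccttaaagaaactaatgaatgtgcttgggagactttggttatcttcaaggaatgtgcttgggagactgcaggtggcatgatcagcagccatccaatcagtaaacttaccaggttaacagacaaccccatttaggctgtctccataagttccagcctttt
IGFL4 (chr19:46041003-46041252, minus strand): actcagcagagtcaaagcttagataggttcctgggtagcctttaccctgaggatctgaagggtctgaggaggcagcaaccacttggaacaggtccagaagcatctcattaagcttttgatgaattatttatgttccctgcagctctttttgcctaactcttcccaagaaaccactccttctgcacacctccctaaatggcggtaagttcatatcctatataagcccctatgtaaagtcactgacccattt
IGFL1 held 2 matches, CTTTGTA and CTTTGAT read on the opposite strand, which begin 165 and 153 bases before the start. IGFL2 held 1 match, CTTTGAA, which begins 232 bases before the start. The windows of IGFL3, of IGFLR1 and of both annotated starts of IGFL4 held none of the 4 spellings. Of 35116 windows of this length over all RefSeq promoters, 12% held at least 1 match and 1.21% held 2 or more. By spelling, CTTTGAA was in 3.8% of windows, CTTTGAT in 2.26%, CTTTGTA in 2.35% and CTTTGTT in 4.5%. In global alignments, the IGFL2 window and the IGFL4 window printed here shared 190 identical bases of 250, or 76.0%, while the IGFL1 window shared 59.2% with that of IGFL2 and 61.2% with that of IGFL3, near the 58.8% and 60.0% that the windows of IGFL2 and IGFL3 shared with that of IGFLR1, outside the cluster. A match describes letters in these windows and is not a site of binding.

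Genes of 3 related groups were read in the same comparisons. Of 20 Wnt target genes 15 were tested, and 6 rose and 0 fell with Wnt3a after control siRNA, against 1.09% and 1.02% of all genes, with a median difference of 0.48 against 0.02 over all genes. They were TCF7 (1.4, adjusted p = 0.00779), RNF43 (1.02, adjusted p = 9.77e-05), NKD2 (0.70, adjusted p = 0.00674), LEF1 (0.61, adjusted p = 0.0406), AXIN2 (0.60, adjusted p = 0.00662) and CD44 (0.48, adjusted p = 0.00263). With FZD8_CRD, 3 rose with Wnt3a (TCF7 by 1.64, RNF43 by 0.81 and CD44 by 0.31) and 2 fell (APCDD1, -1.54, adjusted p = 0.0111, and DKK1, -0.88, adjusted p = 0.00495), against 4.36% and 3.94% of all genes, and AXIN2 differed by 0.13 (adjusted p = 0.580), while IGFL1 and IGFL2 rose by 5.11 and 4.58. Without FZD8_CRD replicate 3, 4 rose and 4 fell, against 8.67% and 11.3% of all genes, with 2.09 for TCF7, 0.86 for RNF43, 0.34 for CD44, -2.18 for APCDD1 and -1.15 for DKK1. Between siCTNNB1 and control siRNA with Wnt3a, 8 of the 15 were lower and 2 higher, against 6.50% and 4.08% of all genes, and without Wnt3a 5 were lower and 3 higher, against 6.16% and 4.4%. The medians were -0.64 with and -0.08 without Wnt3a, against -0.01 and -0.03 over all genes. The 8 lower genes with Wnt3a included NKD1 (-0.71, limma adjusted p = 0.0282). Its differences were 0 with Wnt3a after siCTNNB1, with Wnt3a in the presence of FZD8_CRD, and between the siRNAs without Wnt3a. Its values lay at the floor there, so the filter on dim probes bears on this call and nothing is drawn from it. Among the rises with Wnt3a after control siRNA, LEF1 was not called without any single array of the 6, nor with normexp (adjusted p = 0.0696). It was also not called with no filter on dim probes (0.0877), no moderation (0.0632), or the deposited table with or without a trend (0.0514 and 0.0523). CD44 was not called with the mean of its probes (0.28, adjusted p = 0.0826) or by the study's thresholds. TCF7, NKD2 and AXIN2 were not called without control siRNA replicate 3 (adjusted p = 0.0605, 0.0526 and 0.0565), and RNF43 kept its call in each setting. Without replicate 1 or without replicate 2 of every condition TCF7, NKD2, LEF1, AXIN2 and CD44 were not called.

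Of 25 genes of the insulin-like growth factor axis 21 were tested, and 1 rose and 0 fell with Wnt3a after control siRNA, against 1.09% and 1.02% of all genes. It was HTRA1, a protease of IGF-binding proteins (0.45, adjusted p = 0.0125). The median difference was 0.28 against 0.02 over all genes. Of 29 genes of the tumor necrosis factor receptor superfamily, relatives of IGFLR1, 24 were tested, and 1 rose and 0 fell, against the same shares. It was TNFRSF25 (0.53, adjusted p = 0.0479). The median was 0.03 against 0.02, and TNFRSF25 was not called with normexp (adjusted p = 0.0623) or without any single array of the 6. It was also not called with no filter on dim probes (0.0973), the mean of its probes (0.0746), no moderation (0.0704), or the deposited table with or without a trend (0.0585 and 0.0555). By the study's thresholds neither TNFRSF25 nor HTRA1 was called. HTRA1 was not called without control siRNA replicate 1 or 3 or without the Wnt3a replicate 2, and neither gene without replicate 1 or without replicate 2 of every condition. Between siCTNNB1 and control siRNA without Wnt3a, 3 of these 24 were higher and 4 lower, and of the 21 genes of the growth factor axis 4 were higher and 1 lower, against 4.4% higher and 6.16% lower over all genes. With Wnt3a 2 of the 24 were higher and 3 lower, and of the 21 genes 4 were higher and 4 lower, against 4.08% and 6.50%. With Wnt3a in the presence of FZD8_CRD 1 of the 24 rose and 2 fell, and of the 21 genes 4 rose and 4 fell, against 4.36% and 3.94%. With FZD8_CRD replicate 3 left out these counts were 1 and 4, and 6 and 4, against 8.67% and 11.3%.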

How the data were processed

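RNA of 24 HepaRG cultures was hybridized to single-color Agilent arrays. Per the file headers, the authors' scanner files give intensity from Feature Extraction 10.7.1.1 (the submitters' processing notes name 10.7.3.1). The authors' deposited value table holds log2 signals centred per probe for 25443 probes, with column medians between -0.05 and 0.02; it differed from values recomputed here by a median of 0.03, and served as an alternative.

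Processed signals of 61657 non-control spots were divided by the 75th percentile of each array, floored at 1.43% of it, log2 transformed, and averaged per probe without spots marked as outliers. Of 50683 probes 28174 took a symbol through RefSeq transcripts (GRCh38.p14 table). A probe was kept where at least 1 condition had its 3 arrays well above background (31065), and the brightest stood for a gene, giving 24647 genes. Of these, 16000 have a symbol and 8647 are entries named by an identifier only, and shares of all genes count both. On each array 58.3% to 66.5% of spots were well above background. Differences were tested with limma 3.58.1 (R 4.3.3, 8 condition means, trend, two-sided, Benjamini-Hochberg over all genes, called at an adjusted p under 0.05). The procedure was also run on simulated data, whose noise was independent between arrays with no slide effect. That run thus says nothing on calls where arrays of one slide share deviations. The members and lists were chosen with earlier results of these data known, and the motif set after the sequences were seen. Named genes are the members, CTNNB1, the 5 largest rises with Wnt3a after control siRNA, the 5 most alike genes per IGFL gene, neighbours, and list members called; markers are named from fixed lists, for detection or where called.

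The replicate number is the slide in the file headers. Deviations from condition means correlated at a mean of 0.38 between arrays of one slide, over 0.1 in 82 of 84 such pairs, so arrays of one slide shared deviations. The mean of -0.19 between slides is negative in part because deviations were taken within conditions, so it adds no separate evidence. The main fit has no term for the slide. With the replicate block, genes called with Wnt3a after control siRNA went from 520 to 1073. There the limma adjusted p of IGFLR1 went from 0.0596 to 0.0168, and IGFL1, IGFL2 and IGFL3 kept their calls. Each slide holds all 8 conditions, and the replicate block and within-slide values rest on that. Alternatives covered normalization, background, filter, floor, probes, marked spots, replicate block, arrays in the fit, moderation, thresholds, the deposited table and left-out arrays. Normexp (offset 50) used median signals. Promoters were aligned with Biopython 1.88.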

Additional observations from a re-analysis of the deposited data

Results flagged for a closer look

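IGFLR1, the receptor gene, was lower after siRNA against beta-catenin than after control siRNA on each of 3 slides without Wnt3a (-0.10, -0.17 and -0.09 on the log2 scale) and higher on each of 3 slides with Wnt3a (0.18, 0.24 and 0.09). It is given here because the slides moved opposite ways in these 2 settings. The difference between the settings was 0.29, and in the limma test of that difference the adjusted p was 1 over all genes.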

How the results depend on the processing

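The 3 arrays per condition limit every value, and slide and replicate number cannot be told apart. Some log2 differences moved by over 1.5-fold, and calls changed with the processing, the fit and the arrays used. With normexp the untransfected Wnt3a difference of IGFL1 was 1.85. After control siRNA IGFL1 had 2.72 with no filter, with no moderation and in the deposited table, each not called, and IGFL3 2.27 in the deposited table, not called. IGFLR1 had -0.28 with quantile normalization, with the replicate block and in the deposited table with or without a trend, each called. The fit of the deposited table without a mean-variance trend was added after the data were seen; it kept each call of IGFL1, IGFL2 and IGFL3 that the full fit made (after control siRNA adjusted p = 0.0297 for IGFL1 and 0.00655 for IGFL3), so the calls missed in that table below are those of its fit with the trend. With arrays left out the ranges were 2.32 to 3.07 for IGFL1, 2.85 to 3.96 for IGFL2, 1.81 to 2.62 for IGFL3 and -0.35 to -0.23 for IGFLR1. After siRNA against beta-catenin IGFL2 had 0.80 with the compared arrays alone, called. With FZD8_CRD the compared arrays alone gave 5.11 for IGFL1, 4.58 for IGFL2 and 1.23 for IGFL3, none called. The deposited table gave 4.99 for IGFL1 and 1.23 for IGFL3, not called, and IGFL3 had 1.23 with no filter and with no moderation, not called. With arrays left out the ranges were 4.34 to 6.41 for IGFL1, 4.12 to 5.48 for IGFL2 and 0.92 to 1.4 for IGFL3. Between the siRNAs without Wnt3a IGFL1 had -2.67 in the deposited table, not called, and -3.16 to -2.41 with arrays left out. With Wnt3a IGFL1 had -4.85 in the deposited table, not called, and IGFLR1 0.21 with quantile normalization, called. By the study's thresholds the difference of responses was called for IGFL2 (-2.71) and IGFL3 (-1.95). Genes called after control siRNA numbered 520, against 290 with no filter, 1073 with the replicate block, 1464 with the compared arrays alone and 8 to 327 in 8 of 9 fits with arrays left out. With FZD8_CRD they numbered 2044, against 3299 with the replicate block, 0 with the compared arrays alone and 348, 366 and 4923 without FZD8_CRD replicate 1, 2 or 3, 865, 879 and 1236 without replicate 1, 2 or 3 of FZD8_CRD plus Wnt3a, and 3, 0 and 5310 without replicate 1, 2 or 3 of every condition. Between the siRNAs without Wnt3a they numbered 2604, against 4095 with the replicate block, 4386 with the compared arrays alone, 1395 by the study's thresholds, 1362 to 1755 without any single array, and 498, 448 and 2331 without replicate 1, 2 or 3 of every condition. With Wnt3a they numbered 2608, against 1593 by the study's thresholds, 1693 to 2285 without any single array, and 926, 604 and 2669 without replicate 1, 2 or 3 of every condition. For the Wnt3a response after siRNA against beta-catenin they numbered 10, against 46 with the replicate block, 182 with the compared arrays alone, 314 by the study's thresholds and 0 to 91 with arrays left out, and for the difference of responses 4, against 10, 39 and 140, and 1 to 10 with arrays left out.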
